A study of Mus musculus with 14 samples.

Results

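The 35 genes described here are interferon-stimulated genes, listed by symbol, and their levels were read in sorted muscle precursor cells of mice of 3 ages. All probe sets annotated to a listed gene alone were taken, whatever their values. Of the 35 listed genes, 33 had at least 1 probe set of their own, among 18193 genes in the whole series with such a probe set. These 33 genes had 54 of the 45101 probe sets on the array. A filter on dim signal kept 42 of the 54 probe sets and 30 of the genes, and these 30 are the measured members among the 13579 genes tested. Mx1, Eif2ak2 and Sp100 lay below the filter. Isg15 and Ifi44 had no probe set of their own here, since the probe set that names Isg15 is annotated to a further gene as well. To pass, a probe set had to exceed the array's 40th percentile on 4 or more of the 14 arrays, whatever the age. Of the measured members, 26 passed on all 14 arrays, Cmpk2 on 13, Ifit1 on 12, Oasl2 on 10 and Usp18 on 5. Oasl2 lay below that percentile on 3 young arrays and 1 middle-aged array, and Ifit1 on 2 young arrays. A member that passes mainly through the group where it is high is bound to differ between groups, so the counts below describe the measured members only.

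The study asked which transcripts differ with age in muscle precursors, and age is the only factor in the labels. C57BL/6 mice gave 5 young arrays (2 months), 4 middle-aged arrays (12 months) and 5 aged arrays (24 months), none with a treatment label. The cells were released from myofibres by digestion and sorted as CD45-, Ter119-, Sca-1-, CD29+ and Cxcr4+, which selects for satellite cells, the muscle's own stem cells. Nothing in the labels says whether arrays came from separate or pooled animals, so each p-value speaks of the spread from array to array, some of which can be technical.

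All 10 satellite cell markers were measured, and their average log2 level was 9.99 ± 0.15 (SD over 5 young arrays), 9.66 ± 0.24 (4 middle-aged arrays) and 9.44 ± 0.21 (5 aged arrays). Ptprc, which encodes the CD45 that the sort removed, was below the filter. The arrays also fell into a pair of sets that cross the ages, 8 arrays in set 1 and 6 in set 2, defined from the values themselves. Set 1 held young 1, 3 and 4, middle-aged 2, 3 and 4 and aged 1 and 2.

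Type I interferons bind a receptor made of Ifnar1 and Ifnar2 and signal through the kinases Jak1 and Tyk2 to a complex that includes Stat2 and Irf9 and binds the interferon-stimulated response element (ISRE) of target genes. Interferon gamma acts through another receptor and the gamma-activated site (GAS), and many target genes answer to both. The target genes encode restriction factors against viruses, sensors of foreign nucleic acid and regulators of the pathway itself, and many cells keep a low level of them without infection.

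The sequences before the gene starts show which members carry the letters of these elements close to their starts. RefSeq promoter windows (GRCm38.p6) were found for 27 of the 35 listed genes, and the 250 bases before each start were searched on both strands. The ISRE core, searched as GAAA, any 2 bases and GAAA again, was in the windows of 8 of the 27 genes (29.6%) and of 936 of all 27025 genes (3.46%). The 8 genes were Bst2, Ifit1, Ifit3, Ifitm2, Isg15, Oas1a, Rsad2 and Stat2. The GAS letters, TTCNNNGAA, were in windows of 7 of the 27 (25.9%) and of 2197 of 27025 genes (8.13%). These 7 were Bst2, Eif2ak2, Ifit2, Irf1, Isg20, Oas1a and Samhd1. A match of the first motif overlapped one of the second in 18 windows of all genes and in 1 window of a listed gene, that of Bst2. A match is a description of these letters and no shown site of binding.

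Ifit1 and Ifit3 are shown whole because both hold 2 ISRE cores and both were called at 24 months. Capitals mark the ISRE core, here read on the opposite strand, and each window is 5′ to 3′ in the direction of the gene.
Ifit1, chr19:34640639-34640888, plus strand: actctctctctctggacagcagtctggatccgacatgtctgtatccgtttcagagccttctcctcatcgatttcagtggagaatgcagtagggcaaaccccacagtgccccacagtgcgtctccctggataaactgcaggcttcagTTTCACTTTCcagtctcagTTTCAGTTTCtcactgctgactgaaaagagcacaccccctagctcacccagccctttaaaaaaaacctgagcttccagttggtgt
Ifit3, chr19:34583279-34583528, plus strand: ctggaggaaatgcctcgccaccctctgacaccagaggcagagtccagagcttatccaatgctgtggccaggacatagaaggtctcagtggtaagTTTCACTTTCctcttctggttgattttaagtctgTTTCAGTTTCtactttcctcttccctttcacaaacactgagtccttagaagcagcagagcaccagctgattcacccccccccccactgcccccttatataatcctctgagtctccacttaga
In Ifit1 the cores began 104 and 85 bases before the gene start, and in Ifit3 they began 156 and 122 bases before it. In both genes the farther core read TTTCACTTTC and the nearer one TTTCAGTTTC.

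The next stretches set 2 members called at 24 months, Ifitm2 (ISRE core) and Isg20 (GAS), beside Rsad2 and Stat2 (ISRE core) and Irf1 (GAS), which did not pass the test. Capitals mark the matched letters and the stretch runs 25 bases to each side.
Ifitm2, chr7:140955973-140956032, minus strand: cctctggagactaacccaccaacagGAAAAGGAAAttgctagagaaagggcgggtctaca
Isg20, chr7:78913326-78913384, plus strand: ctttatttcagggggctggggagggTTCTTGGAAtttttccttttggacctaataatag
Rsad2, chr12:26456538-26456597, minus strand: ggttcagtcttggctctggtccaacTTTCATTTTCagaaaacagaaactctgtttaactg
Stat2, chr10:128270251-128270310, plus strand: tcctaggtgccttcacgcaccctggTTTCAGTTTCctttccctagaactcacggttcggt
Irf1, chr11:53769899-53769957, plus strand: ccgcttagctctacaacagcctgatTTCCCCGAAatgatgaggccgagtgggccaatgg
Members with an ISRE core stood on both sides of the test. Ifit1, Ifit3 and Ifitm2 held the core and passed the test at 24 months, while Bst2, Oas1a, Rsad2 and Stat2 held it and did not. Isg20, Irf7, Oasl2, Ifitm1 and Ifitm3 passed the test with no ISRE core in these windows. Rtp4 and Parp14 also passed but had no promoter window here, so they were not searched.

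In aged against young cells, 10 of the 30 measured members were higher and 0 were lower at an adjusted p under 0.05 (limma, adjusted over all 13579 genes). Over all genes tested, 3.05% were called higher and 1.25% lower. The 10 were Rtp4, Ifit1, Isg20, Ifitm1, Parp14, Ifit3, Oasl2, Irf7, Ifitm2 and Ifitm3. The median log2 change was 0.62 over the members and -0.05 over all genes tested, and 27 of 30 members had a positive change against 41.9% of all genes. Every aged array lay above every young array for 8 members, against 3.48% of all genes, and below every young array for 0 members, against 1.97%. An unadjusted p under 0.05 was reached by 18 of 30 members and by 2252 of 13579 genes. The values come from bulk RNA of sorted cells, so a change in the mix of cells and a change in RNA per cell cannot be told apart.

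In middle-aged against young cells, 3 of 30 members were called higher and 0 lower, against 1.75% and 1.22% of all genes. These were Isg20, Ifitm2 and Ifitm3. The median log2 change over the members was 0.41, against -0.04 over all genes, and 28 of 30 members had a positive change, against 43.4%. Every middle-aged array was above every young array for 6 members, against 3.62% of all genes, and below every young array for 0, against 5.07%. Both comparisons use the same young arrays, so they are not independent. Of the 10 members called at 24 months, 9 had a middle-aged mean between the young and aged means, and Ifitm3 was the exception. For Isg20 the middle-aged and aged means were nearly equal, at 10.01 and 10.05, as they were for Ifitm2, at 9.51 and 9.52. The 10 were picked by their gap between young and aged arrays, and the share over all genes was not computed. The count therefore does not show a graded rise.

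**Figure D1:**
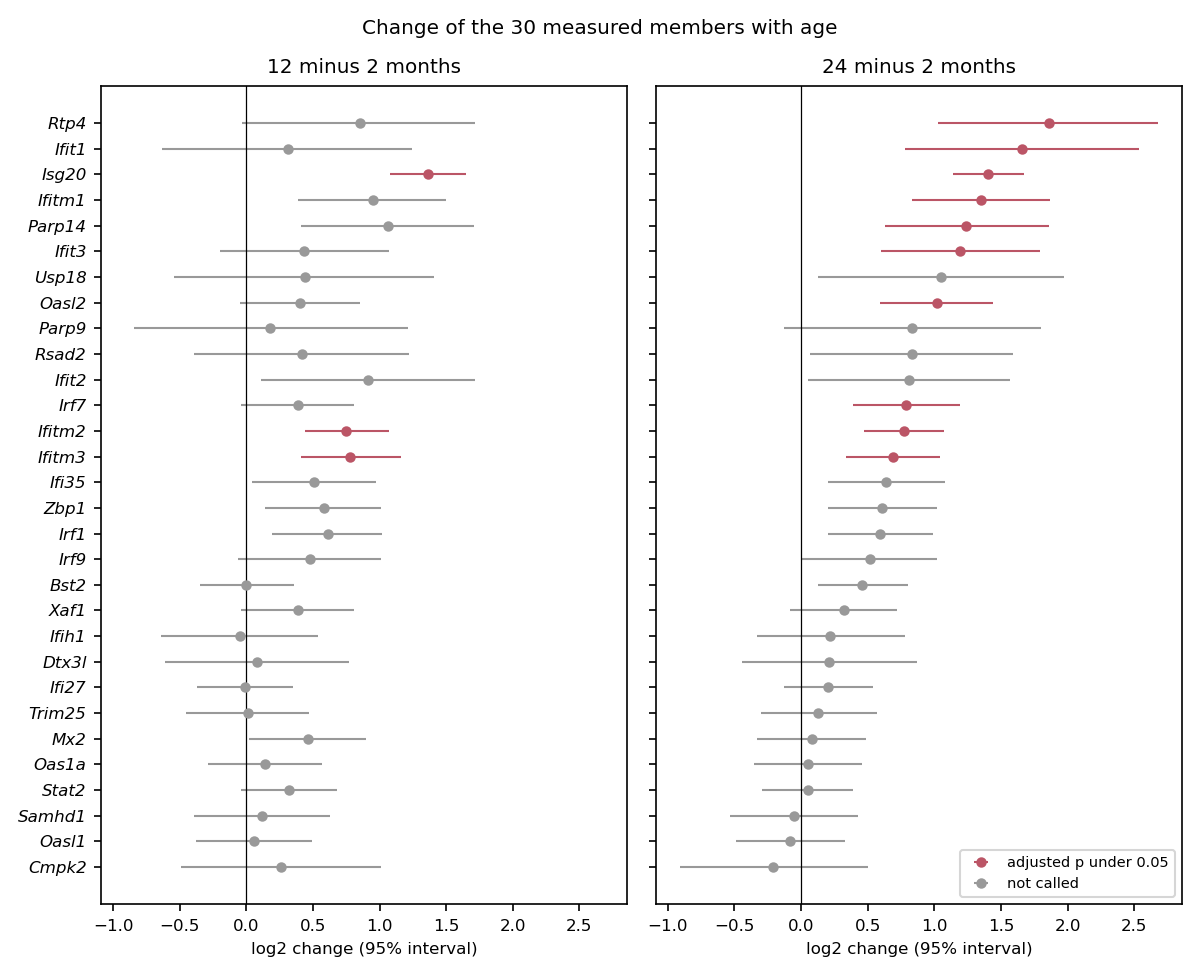
Log2 change of the 30 measured members at 12 minus 2 months (left) and 24 minus 2 months (right). Points are limma estimates, bars are 95% confidence intervals, red marks an adjusted p under 0.05, and genes are ordered by their change at 24 months. Red points number 3 on the left and 10 on the right, all above 0.

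Between 12 and 24 months 0 members were called, and 0 of all 13579 genes were (0% in each direction, limma). At an unadjusted p under 0.05 there were 5 members and 1306 of all genes. The median log2 change over the members was 0.13, and 20 of 30 had a positive change, against 51.4% of all genes. Ifit1 alone had every aged array above every middle-aged array (1 of 30 members, against 1.41% of all genes). The test of whether the late step (12 to 24 months) differs from the early step (2 to 12 months) called 0 members and 0% of all genes, with 4 of 30 members and 1614 of 13579 genes at an unadjusted p under 0.05. The median difference was -0.26 over the members and 0.04 over all genes. With array weights in the fit this test called 1 member, as lower, and 179 of 13579 genes. The F test over the 3 ages called 7 members, against 4.16% of all genes: Isg20, Ifitm1, Ifitm2, Ifitm3, Oasl2, Rtp4 and Parp14.

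The transcription factors of the pathway come first. Irf7, which drives the second wave of interferon genes, read log2 values of 4.40, 4.62, 4.45, 5.00 and 4.47 on the young arrays, 4.89, 4.66, 5.14 and 5.20 on the middle-aged and 5.73, 5.13, 5.83, 5.19 and 5.00 on the aged arrays. Aged 5 equalled young 4 to the precision given, and the other aged arrays were above every young array. The log2 change at 24 months was 0.79 (SE 0.19, 1.73-fold, limma adjusted p = 0.0248). At 12 months it was 0.39 (SE 0.20, limma adjusted p = 0.362).

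Stat2, a subunit of the ISRE-binding complex, read 5.44, 5.02, 5.13, 5.10 and 5.18 on young, 5.36, 6.07, 5.33 and 5.21 on middle-aged and 5.32, 5.26, 5.02, 5.26 and 5.28 on aged arrays. The groups overlapped throughout and middle-aged 2 was the highest array. The log2 difference at 24 months was 0.05 (95% interval -0.29 to 0.39, limma adjusted p = 0.909). Irf9, the DNA-binding subunit of the same complex, had means of 7.23, 7.71 and 7.75 at the 3 ages (log2 difference at 24 months 0.52, limma adjusted p = 0.285).

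Irf1, a factor induced by both kinds of interferon, had means of 9.76 ± 0.44 (SD, n = 5), 10.37 ± 0.12 (n = 4) and 10.36 ± 0.17 (n = 5). All middle-aged and all aged arrays lay above all young arrays, the lowest aged array at 10.19 and the highest young array at 10.17. The log2 difference at 24 months was 0.59 (SE 0.18) and missed the threshold (limma adjusted p = 0.0922).

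The IFIT proteins bind foreign RNA and block its translation, and their genes lie together on chromosome 19. Ifit1 read 3.81, 3.40, 4.11, 4.66 and 5.83 on young, 4.98, 4.09, 4.39 and 5.21 on middle-aged and 6.23, 5.52, 7.10, 5.79 and 5.50 on aged arrays. Every aged array was above every middle-aged array, while young 5 stood above 3 of the aged arrays. The log2 change at 24 months was 1.66 (SE 0.41, 3.17-fold, limma adjusted p = 0.0313), and at 12 months the difference was 0.31 (SE 0.44, limma adjusted p = 0.808).

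Ifit3 read 5.16, 5.81, 4.97, 5.65 and 5.74 on young, 6.05, 5.96, 5.81 and 5.78 on middle-aged and 6.47, 5.91, 7.51, 6.12 and 7.28 on aged arrays. All aged arrays were above all young arrays, with aged 3 and aged 5 the highest. Its log2 change at 24 months was 1.19 (SE 0.28, 2.29-fold, limma adjusted p = 0.0222). Ifit2, next to Ifit3 in the gene order, did not pass at either age, with log2 differences of 0.91 at 12 months and 0.81 at 24 months. Its 2 highest arrays were middle-aged 1 at 7.90 and aged 3 at 7.88.

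The OAS family senses double-stranded RNA, and 1 of its 3 measured members was called. Oasl2 read 3.62, 3.56, 4.00, 3.58 and 3.99 on young, 4.18, 4.57, 3.88 and 3.98 on middle-aged and 5.37, 4.86, 4.72, 4.66 and 4.23 on aged arrays. All aged arrays were above all young arrays. The log2 change at 24 months was 1.02 (SE 0.20, 2.02-fold, limma adjusted p = 0.00821), against a young level near the filter. Oasl1, its neighbour on chromosome 5 with no protein-coding gene between, differed by -0.08 (SE 0.19, limma adjusted p = 0.89), and Oas1a by 0.05 (SE 0.19, limma adjusted p = 0.922).

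The IFITM proteins sit in cell and endosome membranes and hinder virus entry. Ifitm1, Ifitm2 and Ifitm3 lie side by side on chromosome 7, and all 3 were called at 24 months. Ifitm1 read 5.49, 5.87, 4.77, 5.06 and 4.99 on young, 6.07, 5.95, 6.31 and 6.41 on middle-aged and 7.03, 6.91, 5.91, 6.89 and 6.19 on aged arrays. The older arrays were all above the young ones, though aged 3 exceeded young 2 only by 5.91 to 5.87. Its log2 change was 1.35 at 24 months (SE 0.25, 2.55-fold, limma adjusted p = 0.00526) and its difference 0.95 at 12 months (SE 0.26, limma adjusted p = 0.0641).

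Ifitm2 read 8.87, 8.85, 8.41, 8.78 and 8.85 on young, 9.41, 9.41, 9.77 and 9.44 on middle-aged and 9.40, 9.42, 9.85, 9.55 and 9.39 on aged arrays. Its lowest older array, at 9.39, stood well clear of its highest young array, at 8.87. The log2 change was 0.75 at 12 months (SE 0.15, limma adjusted p = 0.0126) and 0.77 at 24 months (SE 0.14, limma adjusted p = 0.0053).

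Ifitm3 read 11.29, 11.63, 11.11, 10.71 and 11.24 on young, 12.00, 11.82, 11.91 and 12.18 on middle-aged and 12.03, 11.60, 12.12, 11.94 and 11.75 on aged arrays. Only aged 2, at 11.60, fell below young 2. The log2 change was 0.78 at 12 months (SE 0.18, limma adjusted p = 0.0265) and 0.69 at 24 months (SE 0.17, limma adjusted p = 0.026).

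Among the enzymes that degrade nucleic acids or starve viruses of them, Isg20, an RNA exonuclease, had the smallest adjusted p of all members at both ages. It read 8.42, 8.59, 8.86, 8.62 and 8.76 on young, 10.05, 9.89, 9.99 and 10.14 on middle-aged and 10.30, 9.89, 9.96, 10.04 and 10.08 on aged arrays. No older array was below 9.89 and no young array above 8.86. The log2 change was 1.36 at 12 months (SE 0.13, 2.57-fold, limma adjusted p = 0.000407) and 1.40 at 24 months (SE 0.13, 2.64-fold, limma adjusted p = 2.68e-05). From 12 to 24 months it differed by 0.04 (SE 0.13, limma adjusted p = 0.951). The late step minus the early step was -1.33 for Isg20 (limma adjusted p = 0.0967).

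Rsad2 makes a chain-terminating nucleotide and lies beside Cmpk2, which encodes a nucleotide kinase, on chromosome 12 with no protein-coding gene between them. Rsad2 differed by 0.83 (SE 0.36, limma adjusted p = 0.246) and Cmpk2 by -0.21 (SE 0.33, limma adjusted p = 0.814) at 24 months. On aged 3 both were at their highest of all 14 arrays, at 9.77 and 5.80. Mx2, a GTPase, differed by 0.46 at 12 months and 0.08 at 24 months and passed at neither.

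**Figure D2:**
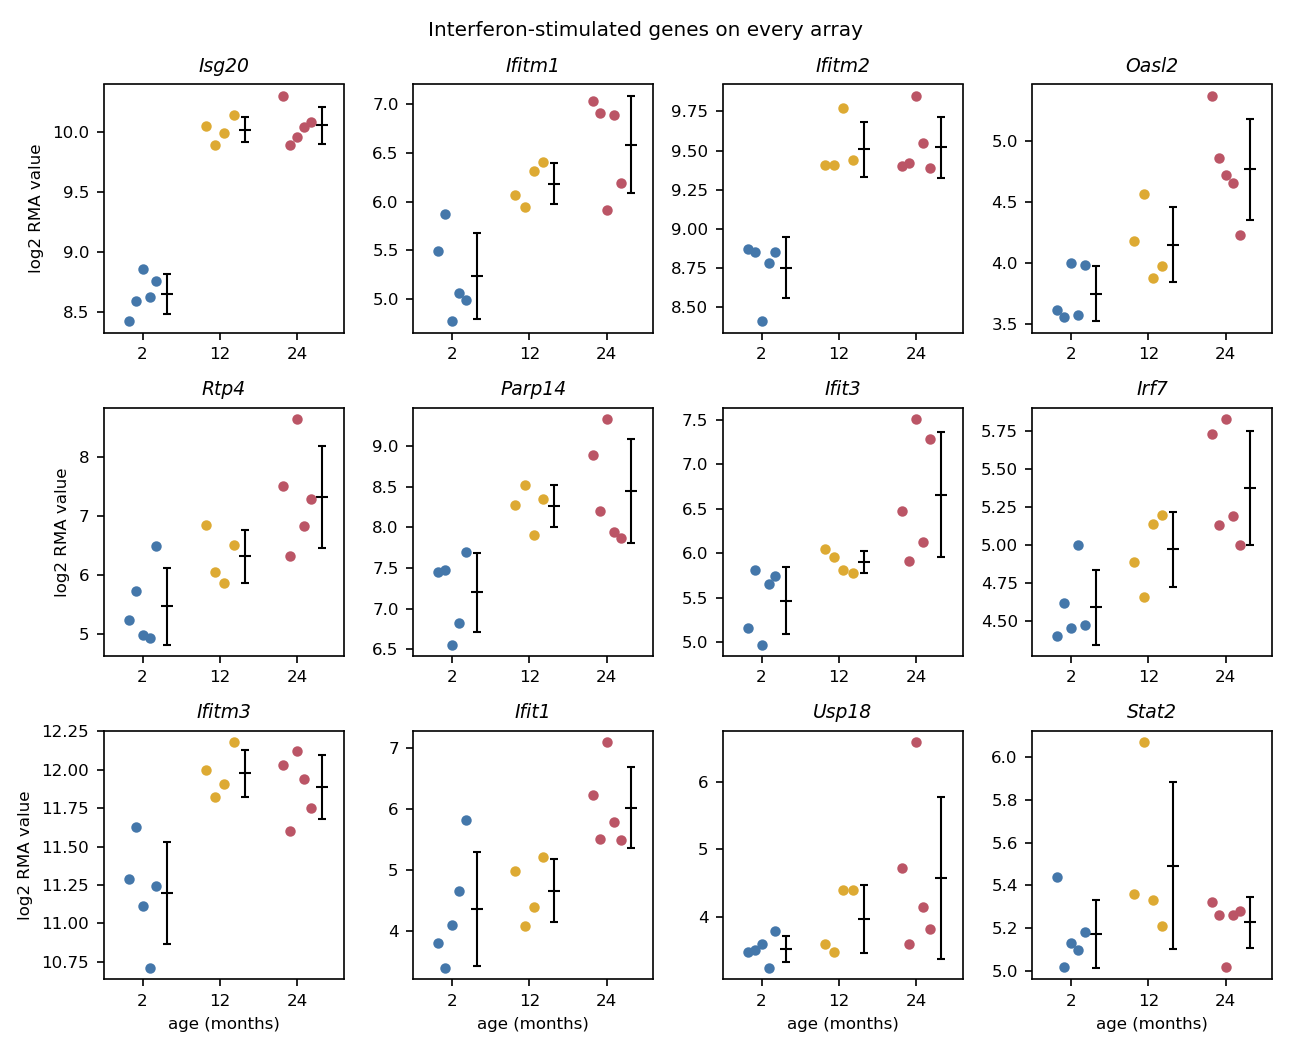
Log2 RMA values of 12 members on every array against age in months, 1 point per array, with the mean and SD (bar) beside each group; each panel has its own axis, which does not start at 0. Isg20, Ifitm2 and Ifitm3 are already high at 12 months, Ifit1 and Ifit3 mainly at 24 months, Usp18 has 1 high aged array at 6.59, and Stat2 overlaps at all ages.

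Isg15 is a ubiquitin-like protein that target proteins carry, and Usp18 removes it and also damps receptor signalling. Usp18 read 3.47, 3.51, 3.59, 3.24 and 3.79 on young, 3.59, 3.47, 4.40 and 4.39 on middle-aged and 4.72, 3.60, 6.59, 4.15 and 3.82 on aged arrays. Aged 3 stood apart and the other arrays overlapped between ages, with all 5 young arrays below the 40th percentile. The log2 difference at 24 months was 1.05 (SE 0.43, limma adjusted p = 0.22), and without aged 3 it was 0.55. Trim25, a ubiquitin ligase of antiviral RNA sensing, differed by 0.13 (limma adjusted p = 0.803).

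Parp14, Dtx3l and Parp9 lie in a row on chromosome 16 and encode an ADP-ribosyltransferase and a ubiquitin ligase complex. Parp14 read 7.45, 7.48, 6.56, 6.82 and 7.70 on young, 8.27, 8.52, 7.91 and 8.35 on middle-aged and 8.89, 8.20, 9.33, 7.94 and 7.87 on aged arrays. All older arrays were above all young arrays, the closest being aged 5 at 7.87 and young 5 at 7.70. The log2 change at 24 months was 1.24 (SE 0.29, 2.37-fold, limma adjusted p = 0.0207). A dimmer probe set of Parp14 differed by 0.15 (SE 0.17, limma adjusted p = 0.755, adjusted over all kept probe sets). Neither neighbour passed, with 0.21 (SE 0.31) for Dtx3l and 0.83 (SE 0.45) for Parp9.

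Rtp4 encodes a receptor transporter protein with antiviral activity, and it had the largest log2 change of the measured members at 24 months. It read 5.24, 5.73, 4.98, 4.93 and 6.49 on young, 6.85, 6.06, 5.86 and 6.51 on middle-aged and 7.52, 6.33, 8.65, 6.83 and 7.30 on aged arrays. Young 5 was above aged 2 and 2 middle-aged arrays, and the other young arrays were below all older ones. The log2 change was 1.86 (SE 0.39, 3.62-fold, limma adjusted p = 0.0113) at 24 months, and the difference at 12 months was 0.85 (SE 0.41, limma adjusted p = 0.326).

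The other members did not pass at either age. Ifi35, an interferon-induced leucine zipper protein, differed by 0.64 (SE 0.21, limma adjusted p = 0.102) with all aged arrays above all young arrays. That held for the probe set that stood for the gene. On 1424617_at and 1459151_x_at the difference was 0.72 (SE 0.23) and 0.40 (SE 0.20), and young and aged arrays overlapped. Zbp1, a sensor of Z-form nucleic acid, differed by 0.61 (limma adjusted p = 0.0968), while its second kept probe set differed by -0.32. Bst2 (tetherin), which holds budding virus at the membrane, differed by 0.46 (limma adjusted p = 0.122). Ifih1, a sensor of long double-stranded RNA, Xaf1 and Ifi27 differed by 0.22, 0.32 and 0.20.

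The probe sets of Samhd1, a dNTP triphosphohydrolase, disagreed. The gene was represented by the probe set with the highest mean, 1420272_at, which has no accession in the annotation and gave -0.05 (SE 0.23, limma adjusted p = 0.94). The probe set 1418131_at, annotated to the RefSeq transcript, read 6.16, 7.02, 6.73, 6.40 and 6.54 on young, 7.70, 7.51, 7.99 and 7.09 on middle-aged and 7.54, 8.58, 8.40, 8.15 and 7.51 on aged arrays. All older arrays were above all young arrays on that probe set. Its log2 change at 24 months was 1.46 (SE 0.24, 2.75-fold, limma adjusted p = 0.00321, adjusted over all kept probe sets). The probe set 1434438_at differed by 0.77 (SE 0.20, limma adjusted p = 0.050), while 1420273_x_at and 1444064_at differed by -0.03 and 0.12. With the probe set of largest variance standing for each gene, Samhd1 was called and the count at 24 months was 11. Over the 42 kept member probe sets, 11 were called higher and 0 lower at 24 months, and 8 members had more than 1 kept probe set.

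**Figure D3:**
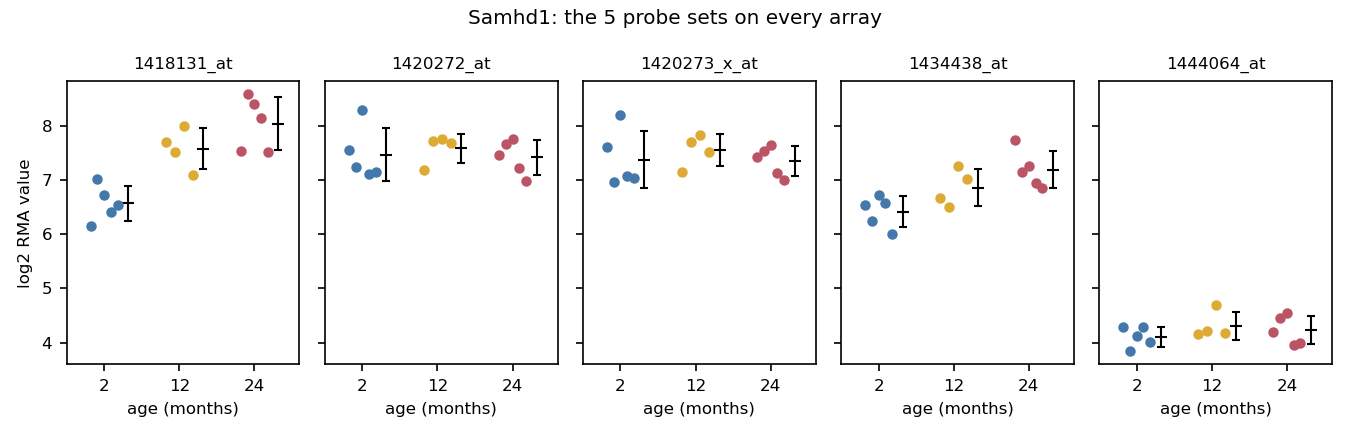
Log2 RMA values of the 5 kept Samhd1 probe sets on every array against age in months, 1 point per array, with the mean and SD (bar) beside each group, on a shared axis that does not start at 0. 1418131_at goes from a mean of 6.57 at 2 months to 8.03 at 24 months, while 1420272_at stays at 7.47 and 7.42.

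How far the members moved differed between arrays of the same age. The mean log2 value over the 30 members ran from 6.49 to 6.78 on young, from 6.94 to 7.22 on middle-aged and from 7.04 to 7.80 on aged arrays. The 3 ranges hold no young array as high as an older one, while the middle-aged and aged ranges overlap. Aged 3 was the highest, at 7.80, and the next aged array stood at 7.34. Aged 3 was the highest of all 14 arrays for 16 of 30 members, and for 8.63% of all genes tested. Among the aged arrays alone it was the highest for 21 members. Without aged 3, 7 members and 536 of all genes were called at 24 months, and the median log2 change over the members was 0.50.

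Other readings also set aged 3 apart. The mean log2 value of the 7 measured endothelial markers was 6.79 on aged 3 and 6.01 on aged 2, against 4.89 to 5.75 on the other 12 arrays. On aged 3 Kdr read 7.31, Cldn5 7.83, Esam 7.55, Egfl7 6.70, Flt1 5.55 and Cdh5 4.90. Tek, at 7.68, was also highest on aged 3 among the aged arrays, whose mean was 6.68. It stayed below its young mean of 7.86. Pecam1, Tie1 and Emcn were below the filter. The part of endothelial transcripts in the member levels was not tested.

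**Figure D4:**
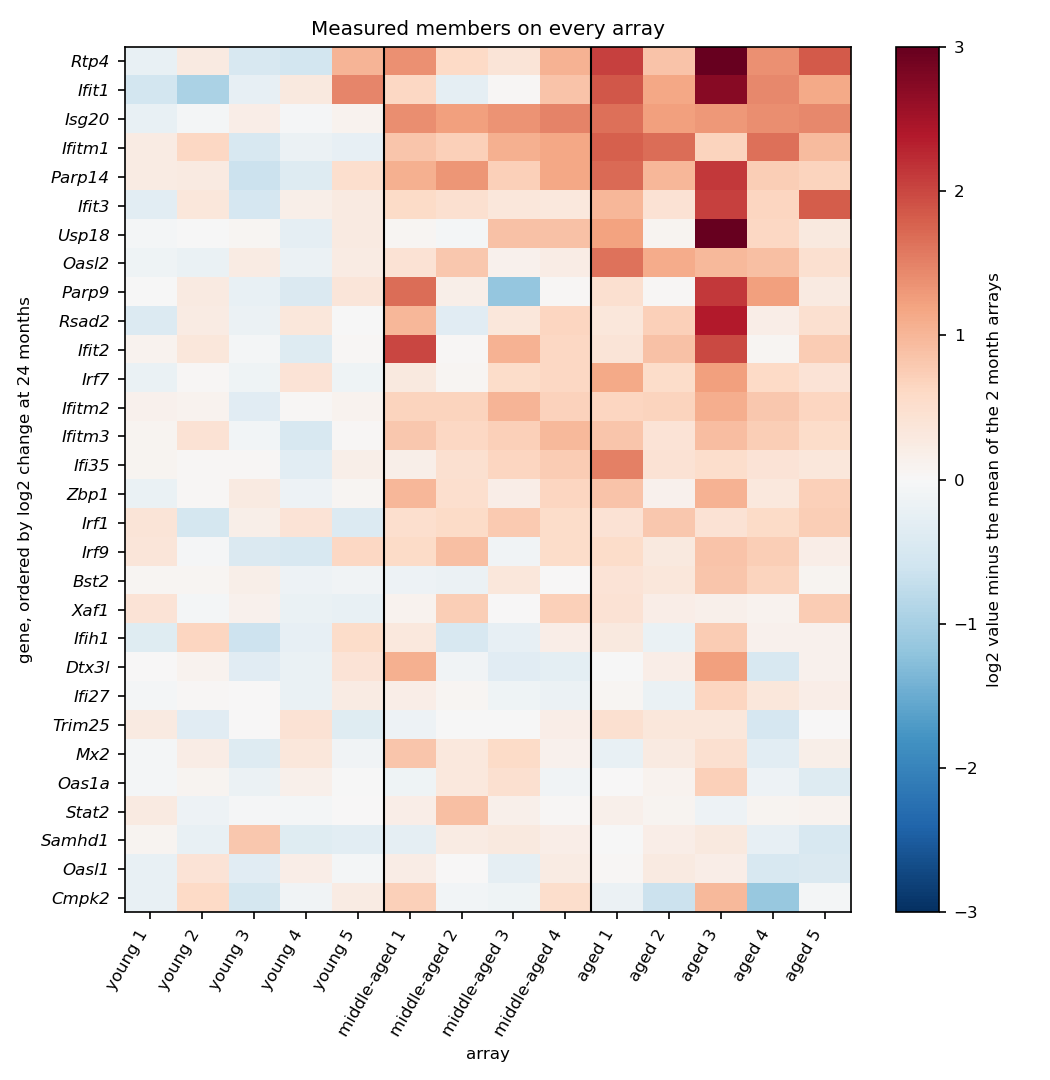
Log2 value of each measured member on each of the 14 arrays, minus that gene's mean over the 5 young arrays, with genes ordered by their change at 24 months and lines between the ages; the colour scale ends at -3 and 3. Aged 3 is the darkest column for Rtp4, Ifit1, Usp18 and Rsad2, and Isg20 is even over all 9 older arrays.

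Leaving out 1 array in turn gave 5 to 11 called members at 24 months, and 388 to 608 of all genes. Isg20, Ifitm1, Ifitm2, Oasl2 and Rtp4 passed each time. Ifit1 no longer passed without young 1, 2, 3 or 4 or without aged 1 or 3, with a largest adjusted p of 0.0899. Ifit3 no longer passed without young 1 or 3 or aged 5 (largest adjusted p 0.0725), and Parp14 without young 3 or 4 or aged 1 (0.0669). Irf7 was lost without young 1, 3 or 5 or aged 1 or 3 (0.0718), and Ifitm3 without young 1, 3 or 4 or aged 1, 3 or 4 (0.0708). The count fell to 5 without young 3 and to 6 without young 1 or aged 1. Over all genes, 388, 406 and 517 were called without these arrays, against 584 with every array. At 12 months Ifitm2 was lost without middle-aged 3, and Ifitm3 without young 1, 3 or 4 or middle-aged 3 or 4. The count there was 1 without middle-aged 3, and 5 without aged 3, where Parp14 and Ifitm1 joined. Over all genes, 155 and 438 were called without these arrays, against 403 with every array.

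A measure of RNA quality also had a different mean at each age. For the Gapdh and Actb controls, the 3′ probe sets exceeded the 5′ ones on the log2 scale. The difference was 4.30 ± 0.54 in young (SD, 5 arrays), 3.85 ± 0.25 in middle-aged (4 arrays) and 3.54 ± 0.51 in aged cells (5 arrays). Aged 4, with the lowest member mean of the aged arrays (7.04), had the smallest difference, 2.89, and aged 3 had 3.18. With this difference as a covariate, 5 members passed at 24 months, Isg20, Irf1, Oasl2, Ifitm1 and Ifitm2, and the median log2 change was 0.46; 462 of all genes were called in either direction, against 584 without it. Rtp4 then had 1.42 (SE 0.47, limma adjusted p = 0.111) and Ifit1 1.51 (SE 0.54, limma adjusted p = 0.139).

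The array sets were drawn from these same values, so the spread within a set is lowered and its p-values can be too small. Within array set 1, 6 members passed at 24 months (Ifit1, Isg20, Oasl2, Rtp4, Parp14 and Ifitm1), with a median log2 change of 0.55. There 702 of all 13579 genes were called in either direction. Within set 2, which has 2 young and 3 aged arrays, the median was 0.60 and 0 members passed by limma, with 8 at an unadjusted p under 0.05 and 21 called among all genes. At 12 months 6 members and 964 of all genes passed within set 1, and 0 members and 0 genes within set 2 (4 members at an unadjusted p under 0.05). Set 2 has 1 middle-aged array, which is assumed to vary like the other groups.

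The other genes of the pathway were counted from lists chosen with earlier results of these data known. Over all genes tested, 3.05% were called higher and 1.25% lower at 24 months, and 1.75% and 1.22% at 12 months. Of 18 interferon genes listed, 5 were measured and 0 passed at either age by limma (0 at 24 months and 1 at 12 months at an unadjusted p under 0.05), and Ifnb1, Ifna2, Ifna4, Ifnab and Ifng were below the filter. All 10 listed receptor and JAK-STAT genes were measured, and at 24 months 1 was higher and 1 lower. Il10rb, a shared receptor subunit, changed by 0.74 (SE 0.20, limma adjusted p = 0.0461) and Tyk2, a receptor kinase, by -0.64 (SE 0.16, limma adjusted p = 0.0355). The receptor chains Ifnar1 and Ifnar2 differed by 0.02 (SE 0.16) and 0.36 (SE 0.27) and did not pass.

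Of 16 sensors and adaptors, 15 were measured and 0 passed at 24 months, with 4 at an unadjusted p under 0.05 (limma). At 12 months 1 passed, the adaptor Myd88, with a log2 change of 0.59 (SE 0.12, limma adjusted p = 0.0196). Of 14 negative regulators, 13 were measured and 1 passed at each age. This was Socs3, a feedback inhibitor of JAK kinases, with 1.08 at 12 months (SE 0.22, limma adjusted p = 0.0162) and 0.95 at 24 months (SE 0.21, limma adjusted p = 0.0157). The median log2 changes of the listed ligands, receptors, sensors and regulators at 24 months were 0.06, -0.03, -0.03 and 0.00, against -0.05 over all genes. At 12 months they were 0.18, 0.22, 0.02 and 0.15, against -0.04.

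A further list of 40 interferon-stimulated genes had 32 measured. At 24 months 10 of them were called higher and 0 lower, against 3.05% and 1.25% of all genes. The median log2 change over the 32 was 0.70, against -0.05 over all genes. Many of the listed genes answer to interferon gamma as well. The GTPases Iigp1, Ifi47, Gbp2, Gbp7, Irgm2 and Gbp3, which act on vacuoles of intracellular pathogens, changed by 2.39 (SE 0.45), 1.88 (SE 0.41), 1.49 (SE 0.28), 1.20 (SE 0.31), 0.99 (SE 0.24) and 0.98 (SE 0.25). The genes of antigen presentation Nlrc5, Psmb8 and B2m changed by 1.60 (SE 0.33), 1.06 (SE 0.20) and 0.88 (SE 0.21), and Trim30a by 1.70 (SE 0.31). Their limma adjusted p ran from 0.00556 for Trim30a to 0.0432 for Gbp7. At 12 months 2 were called higher and 0 lower, against 1.75% and 1.22% of all genes. The 2 were Gbp2 with 1.81 (SE 0.30, limma adjusted p = 0.0039) and Helz2 with 1.13 (SE 0.22, limma adjusted p = 0.0111).

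Marker lists of other cell types give the background to these values. The counts are for 24 months, where 3.05% of all genes tested were called higher and 1.25% lower. Of 8 leukocyte markers 4 were measured and 0 passed at 24 months, with a mean log2 value of 4.79 to 5.10 on young and 4.48 to 5.11 on aged arrays, and Ptprc, Cd53, Coro1a and Cd52 below the filter. Of 9 macrophage markers 5 were measured and 0 passed (4.68 to 4.93 on young, 4.80 to 5.54 on aged arrays), though Lyz2 differed by 1.61 (limma adjusted p = 0.0683). Of 6 plasmacytoid dendritic cell markers 4 were measured, with 0 passing (5.47 to 5.86 on young, 4.93 to 5.69 on aged arrays). Lymphocyte markers had 3 of 7 measured and 0 passing. At an unadjusted p under 0.05 (limma), these 4 lists held 0, 1, 0 and 0 genes. Endothelial markers had 1 of 7 called lower, Tek, fibro-adipogenic markers 1 of 8 higher, Dcn, and satellite cell markers 2 of 10 lower, Calcr and Fgfr4. Tenocyte markers had 7 of 8 called higher, with mean values of 7.01 to 8.46 on young and 9.97 to 11.01 on aged arrays. Myofibre markers had 8 of 10 called higher and 1 lower, with 6.83 to 8.15 on young and 8.53 to 9.82 on aged arrays. The part of the tenocyte and myofibre transcripts in the member changes was not tested.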

How the data were processed

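RNA of 14 samples was extracted with Trizol, labelled with the 3'IVT Express kit and hybridized to Affymetrix mouse arrays, per the labels' protocols. The authors deposited linear intensity values made with RMA, per the submitters' processing notes; RMA corrects background, normalizes between arrays and summarizes probes. RMA's version is not given in the sources used here. Values were converted to log2: the log2 of the deposited intensity was taken here with a pseudocount of 0. Array medians ran from 19.0 to 21.2, and precision is limited by how many arrays there are.

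Symbols came from the 2016 platform annotation. Where a gene had several kept probe sets, the one of highest mean stood for it. All 14 arrays entered 1 model per gene with age as the only factor (limma 3.58.1 in R 4.3.3); tests were moderated and two-sided, and p-values were adjusted by Benjamini-Hochberg across every gene tested. Alternatives varied the filter, probe set choice, scaling, variance model, array weights, covariates, samples and test. After the main fit, the same model was also run on data simulated from the means and residual spread of the real values. Values are given on every array for members called in a pairwise comparison and for Stat2 and Usp18; Irf1 and Samhd1's probe sets were singled out after their values were seen. Members and lists were chosen with earlier results of these data known, and the array sets are the sign of the first principal component of age-centred values.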

Additional observations from a re-analysis of the deposited data

Results flagged for a closer look

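Within each age, a sample was picked out where its gap to the nearest other array was large against the range of the group (Dixon's 95% critical value). Of 93 such groups tested, 6 stood out, and chance gives about 1 in 20. On the log2 scale, Rsad2 on aged 3 read 9.77 with the nearest aged array at 8.09, Stat2 on aged 3 read 5.02 with the nearest at 5.26, and Ifi35 on aged 1 read 11.99 with the nearest at 11.02. Ifitm2 read 8.41 on young 3 with the nearest young array at 8.78, and 9.77 on middle-aged 3 with the nearest at 9.44. Samhd1 read 7.19 on middle-aged 1 with the nearest at 7.68.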

How the results depend on the processing

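The count of members called in aged against young cells, 10, was 5 with the RNA-quality covariate, 6 within array set 1, 0 within array set 2 and 2 with the unequal-variance test (Isg20 and Ifitm2), and 5 to 11 with 1 array left out; it stayed within 1.5 times under the other alternatives. Among all genes, 584 were called there, 462 with the covariate, 702 within array set 1 and 90 with the unequal-variance test. The array sets were drawn from the same values, so the counts within them are no independent check. In middle-aged against young cells 3 members and 403 of all genes were called. These counts were 5 and 1153 with array weights, 6 and 964 within array set 1, and 1 and 194 with a replicate block. They were 5 and 599 with only the 2 groups compared, and 1 and 4 with the unequal-variance test. With 1 array left out they were 1 to 5 and 155 to 458. Within array set 2, which has 1 middle-aged array, the median log2 change over the members was 0.36. Aged against middle-aged cells gave 0 under each alternative run. The late minus the early step gave 1 member and 179 of all genes with array weights, and 0 members with 1 array left out. The F test called 7 members and 565 of all genes. These counts were 4 and 486 with the covariate, and 3 and 341 with a replicate block. With 1 array left out they were 3 to 8 and 282 to 603. The F test within array set 2 is left out, since that set has 1 middle-aged array. The alternatives of the F test were chosen after the data were seen. The replicate block gave 8 members, without Parp14 and Ifitm3, and 489 of all genes in aged against young cells. Same-numbered arrays deviated together (r over 0.1) in 4 of 13 pairs, from -0.48 to 0.26. The labels give only the number, and whether such arrays share more was not tested. Single genes were recomputed under the alternatives for the 10 called members, Stat2 and Usp18, and not for the other 18 members. Among those 12, the log2 differences that changed sign, all uncalled, were those of Usp18 at 12 months within array set 2 (-0.07), of Isg20 between 12 and 24 months with quantile normalization (-0.06), within array set 2 (-0.02) and with 1 array left out (-0.02 to 0.08), of Parp14 with 1 array left out (-0.04 to 0.33), and of Ifitm2 with quantile normalization (-0.08), the array set as a term (-0.02), within array set 1 (-0.13) and with 1 array left out (-0.07 to 0.10). The causes were not tested. Oasl2, Ifit1 and Usp18 lay near the dim filter on part of the arrays, where signal over background limits the fold.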
